A study of Caenorhabditis elegans with 33 samples.

Results

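The 6 vitellogenin genes of *Caenorhabditis elegans*, vit-1 to vit-6, which encode the yolk proteins, were followed in RNA-seq counts of whole animals raised under chronic gamma radiation. They are the genes whose WormBase symbols are vit-1 to vit-6, and are 6 of the 46778 gene identifiers counted. All animals were of the wild-type N2 strain with no mutation or transgene, were synchronised as embryos by bleaching and were kept at 19 °C. Exposed animals grew under a dose rate of 50 mGy per h for 65 h, starting as embryos and ending at harvest, in all 4 generations from F0 to F3. Recovery animals came from a line irradiated in F0 only, and were harvested without irradiation in F1, F2 and F3. Control animals of F0 to F3 were not irradiated in any generation. Each of these 11 groups held 3 libraries, 33 in all, made from entire animals, so that intestine, germ line and all other tissues were mixed. The labels give the harvest stage both as young adult and as L4 larva, the last larval stage, and no record of the stage of each library was used here.

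Vitellogenins are large lipoproteins that the intestine of the hermaphrodite makes and secretes and that growing oocytes take up through the receptor RME-2. Their transcription starts around the moult from L4 to adult, is among the strongest of the adult intestine, and is off in larvae and in males, where the factor MAB-3 represses it. vit-1 and vit-2 encode a large yolk polypeptide, vit-3, vit-4 and vit-5 encode another, and vit-6 encodes a precursor that is cleaved into the smaller yolk polypeptides.

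In the WBcel235 annotation 5 of the 6 genes lie on chromosome X. vit-1 (WBGene00006925) runs from 7727889 to 7733168 and vit-2 (WBGene00006926) from 5101042 to 5106169, both on the forward strand. vit-3 (WBGene00006927) runs from 3567355 to 3572549 and vit-4 (WBGene00006928) from 3558769 to 3563965, both on the reverse strand, with 3389 bases between them. vit-5 (WBGene00006929) lies nearby, from 3403471 to 3408603 on the forward strand. vit-6 (WBGene00006930) is the exception, on chromosome IV from 8261157 to 8266459 on the forward strand. The genes are of like size, with 4870 to 5088 exon bases in 5 or 6 exons, so their counts rank them much as counts per kilobase do. Members of the family have similar sequences and may share reads, so the separate levels of vit-1 and vit-2, and of vit-3, vit-4 and vit-5, are uncertain. Overlapping identifiers on the other strand, 1 each at vit-2, vit-3 and vit-4, held at most 159 counts over all 33 libraries.

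Total counts per library ran from 27698760 to 60808541. The lowest count of any of the 6 genes in any library was 22902, so counting error was small beside the spread between replicates, and all 6 passed the filter on low counts. The 2 libraries with the fewest genes detected were F3 recovery replicate 3, with 18240 genes, and F3 control replicate 3, with 19610, against 20503 to 22210 in the other 31. The share of counts in ribosomal RNA genes ran from 3.19% to 24.3%. The labels do not say whether replicates came from separate irradiations or cultures, and the p-values therefore speak of the spread between these libraries alone. In whole animals a smaller intestine and less vitellogenin RNA per intestinal cell cannot be told apart.

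The family was among the most abundant RNA of these animals in every group. Together the 6 genes took from 1.66% to 3.48% of all counts, with a median of 2.27%. The share was highest in F0, at 3.10% ± 0.350 (SD, n = 3) in control and 2.93% ± 0.323 in exposed animals. It was lowest in F3, at 1.80% ± 0.0338 in control, 1.88% ± 0.0625 in recovery and 1.84% ± 0.162 in exposed animals. The 6 F0 libraries, at 2.55% to 3.48%, all lay above the 9 F3 libraries, at 1.66% to 1.97%.

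Between these ends, the share in F1 was 2.23% ± 0.104 in control, 2.00% ± 0.0744 in recovery and 2.38% ± 0.0376 in exposed animals (SD, n = 3). The 3 exposed libraries of F1 lay above the 3 recovery libraries without overlap. In F2 the share was 2.06% ± 0.218 in control, 2.45% ± 0.156 in recovery and 2.61% ± 0.285 in exposed animals. Each exposed library of F2, at 2.41% to 2.94%, was above each control library, at 1.86% to 2.29%, while recovery libraries, at 2.27% to 2.55%, overlapped both. Of the counts outside ribosomal RNA genes the family took 1.88% to 3.66%. In F2 this share was 2.69% to 3.17% in exposed and 2.57% to 2.78% in recovery libraries, both above control libraries, at 2.37% to 2.56%. Recovery and control libraries of F2 thus overlapped by share of all counts but not by share outside ribosomal RNA. The family's summed CPM, a scaled level explained below, overlapped as well. It was 22785 to 25348 in recovery and 19660 to 23625 in control libraries of F2. Ribosomal RNA took 16.3% of counts on average in F2 control and 9.38% in F2 recovery animals. In F1 the mean share outside it was 2.45% in control, 2.13% in recovery and 2.48% in exposed animals.

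**Figure D1:**
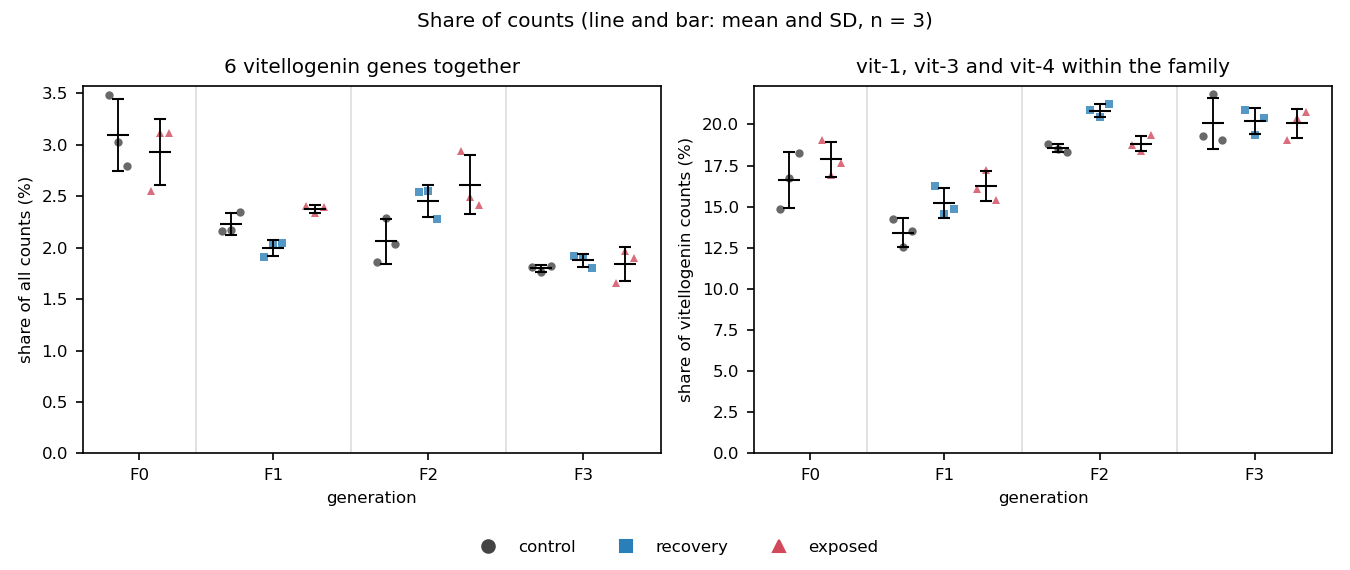
Share of counts by generation and treatment, 1 point per library with mean and SD (n = 3). Left, the 6 vitellogenin genes in percent of all counts: F0 libraries sit highest and F3 libraries lowest. Right, vit-1, vit-3 and vit-4 in percent of the family's counts: F1 control libraries, at 12.5% to 14.3%, sit lowest.

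vit-6 and vit-2 led the family. Outside ribosomal RNA, vit-6 had the most counts of any gene in 22 of the 33 libraries and vit-2 in 9, and vit-5 ranked from 3 to 5. Levels are given below as CPM, the counts of a gene scaled to a common library total, with the totals adjusted by the trimmed mean of M-values (TMM). The median level per kilobase of exon was 1398 CPM for vit-6, 1349.9 CPM for vit-2, 928 CPM for vit-5, 316 CPM for vit-3, 244 CPM for vit-1 and 236 CPM for vit-4. Per kilobase, vit-2 was above vit-6 in 12 of 33 libraries, so the order of the leading pair was not fixed. vit-3 was above vit-4 in 33 of 33 libraries and vit-1 was above vit-4 in 27 of 33.

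Each gene varied about as widely over the study as the others. The highest group mean was 2.03 times the lowest for vit-1, 1.67 times for vit-2, 1.75 times for vit-3, 1.94 times for vit-4, 1.75 times for vit-5 and 2.06 times for vit-6. vit-2, vit-5 and vit-6 stood highest in F0 control animals, at 9400.1 ± 1395 CPM, 6226 ± 782 CPM and 10556 ± 1645 CPM (SD, n = 3). All 3 had their lowest mean in F3 recovery animals, at 5620 ± 328 CPM, 3562 ± 249.5 CPM and 5123 ± 340 CPM. vit-1, vit-3 and vit-4 had their lowest means in F1, in control animals for vit-1 (929 ± 57.0 CPM) and in recovery animals for vit-3 (1114 ± 74.4 CPM) and vit-4 (771 ± 32.5 CPM).

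Most neighbours in the order of the 11 group means differed by less than their spread. Of the 10 neighbouring pairs, a gap larger than the larger SD was found in 3 each for vit-1, vit-3, vit-4 and vit-5 and in 1 each for vit-2 and vit-6. For vit-1 the gap of 329.6 CPM below F2 exposed animals set F0 exposed, F0 control, F2 recovery and F2 exposed animals above the 7 other groups. For vit-6 the gap of 1242 CPM set the 7 groups down to F2 control animals above F1 recovery and the 3 groups of F3. For vit-3 and vit-4 the gap above F1 control animals, 271.6 and 165.5 CPM, set F1 control and F1 recovery animals below all other groups.

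**Figure D2:**
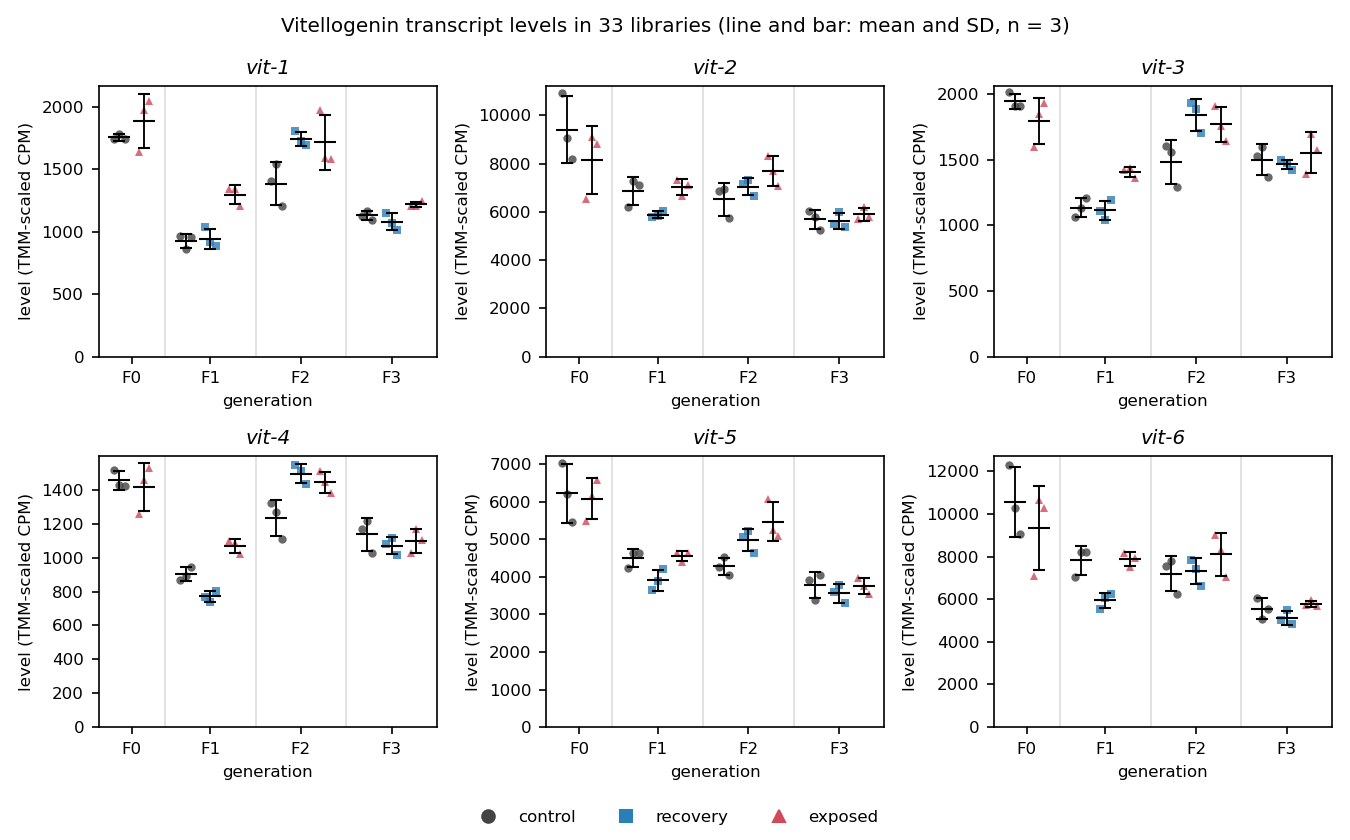
Level of each gene (TMM-scaled CPM, linear axis from 0) by generation and treatment, 1 point per library with mean and SD (n = 3). All 6 genes are lower in F1 control than in F0 control animals, and vit-1 in F1 exposed animals, at 1208 to 1341 CPM, lies above the F1 control libraries, at 863 to 966 CPM.

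The effect of radiation was read first within each generation, as exposed against control animals. All 17627 genes that passed the filter entered edgeR's quasi-likelihood F-test, and genes were called at a Benjamini-Hochberg adjusted p under 0.05 with no threshold on the fold. In F0, the generation irradiated for the first time, edgeR called 0 of the 6 genes, 0 had an unadjusted p under 0.05 and DESeq2 called 0, while edgeR called 1.36% of all genes tested. The 6 log2 fold changes in F0 ran from -0.20 for vit-2 to 0.10 for vit-1, with a median of -0.08 beside 0.01 over all genes.

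In F1, vit-1 was higher in exposed than in control animals. Its level was 1339, 1341 and 1208 CPM in the exposed libraries and 966, 863 and 958 CPM in the control libraries. All 3 exposed libraries lay above all 3 control libraries. The means were 1296 ± 76.4 and 929 ± 57.0 CPM (SD, n = 3), a 1.40-fold rise (log2 0.48 ± 0.09, SE; edgeR adjusted p = 0.00452). It was the 1 vitellogenin gene called in F1, where 1.47% of all genes were called and 0.942% were called higher. Without F1 control replicate 2, which had the lowest vit-1 level of all 33 libraries, the log2 difference was 0.42 and the edgeR adjusted p was 0.0618. In that fit 0.509% of all genes were called.

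The neighbouring pair vit-3 and vit-4 also stood higher in exposed animals of F1 without passing the test. vit-3 was 1420.1, 1438 and 1363 CPM in exposed libraries and 1063, 1132.5 and 1210.0 CPM in control libraries (log2 0.31 ± 0.09; edgeR adjusted p = 0.0882). vit-4 was 1100.4, 1085 and 1021 CPM in exposed libraries and 871, 889.8 and 948 CPM in control libraries (log2 0.24 ± 0.08; edgeR adjusted p = 0.139). For both, as for vit-1, the exposed libraries did not overlap the control libraries, as was the case, in the direction of higher, for 10.7% of all genes. vit-2, vit-5 and vit-6 had log2 differences of 0.03, 0.02 and 0.01.

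In F2, exposed animals had more vit-1 and vit-5 RNA than control animals. vit-1 was 1973, 1593 and 1581 CPM in exposed libraries and 1407, 1547 and 1205 CPM in control libraries, a 1.24-fold rise (log2 0.31 ± 0.09; edgeR adjusted p = 0.0349). vit-5 was 6067, 5238 and 5100.2 CPM in exposed libraries and 4274, 4518 and 4053 CPM in control libraries, a 1.28-fold rise (log2 0.35 ± 0.10; edgeR adjusted p = 0.021). For both genes the lowest exposed library lay above the highest control library. Of all genes 9% were called in this comparison and 2.81% were called higher.

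The other members had positive differences in F2 as well. vit-2, vit-3 and vit-4 did not overlap between exposed and control libraries, with log2 differences of 0.24 ± 0.11, 0.25 ± 0.09 and 0.23 ± 0.08 (SE), none of which passed the test (edgeR adjusted p = 0.178, 0.0739 and 0.0654). vit-6 overlapped, at 0.17 ± 0.13. In all, 5 of the 6 genes were higher in each exposed library than in each control library, beside 12.9% of all genes. The members' median log2 difference was 0.25, beside -0.02 over all genes.

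Both F2 calls were lost in some of the fits that left out 1 library. Neither was kept without F2 exposed replicate 1 (log2 0.20 for vit-1 and 0.27 for vit-5) or without F2 control replicate 1 (0.32 and 0.35), the vit-5 call was lost without F2 control replicate 2 (0.40), and the vit-1 call was lost without F2 control replicate 3 (0.23). Of all genes 2.66%, 5.01%, 0.856% and 13.6% were called in these fits, in the same order, against 9% with all libraries. Without F2 control replicate 1 the log2 values were close to those with all libraries. In a fit of the F2 libraries alone edgeR called 0 of the 6, with log2 differences of 0.31 for vit-1 (adjusted p = 0.106) and 0.36 for vit-5 (adjusted p = 0.0645).

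In F3 edgeR called 0 of the 6 genes, 0 had an unadjusted p under 0.05 and DESeq2 called 0, while 5.24% of all genes were called. vit-1 was 1207, 1209 and 1244 CPM in exposed libraries and 1128.5, 1167 and 1097.5 CPM in control libraries. These did not overlap, as was the case for 9.3% of all genes in the direction of higher, but the log2 difference of 0.11 ± 0.09 had an adjusted p of 0.538. The other 5 genes overlapped, with log2 differences from -0.05 for vit-4 to 0.06 for vit-6.

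Averaged over the 4 generations, vit-1 was the 1 member that passed the test. It was 1.19-fold higher in exposed animals (log2 0.25 ± 0.05, SE; edgeR adjusted p = 0.000629), and kept this call without any single library of the 24 compared, with log2 values from 0.22 to 0.27. Of all genes 8.29% were called in this comparison and 5.53% were called higher. The mean differences of the others were 0.12 ± 0.05 for vit-3 (adjusted p = 0.0879), 0.10 ± 0.04 for vit-4 (0.144), 0.08 ± 0.05 for vit-5 (0.347), 0.03 ± 0.06 for vit-2 (0.814) and 0.02 ± 0.06 for vit-6 (0.92), all on the log2 scale by edgeR.

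Whether the exposed against control difference changed between generations was tested directly, with 1 F-test per gene on the 3 differences from F0. By edgeR 0 of the 6 genes were called, beside 5.33% of all genes, and 4 had an unadjusted p under 0.05. DESeq2 called 3 (vit-3, vit-4 and vit-5). For this test the shares of all genes by unadjusted p and by DESeq2 are not given here, so the counts of 4 and 3 have no background beside them. The edgeR adjusted p ran from 0.0855 for vit-3 to 0.478 for vit-6.

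**Figure D3:**
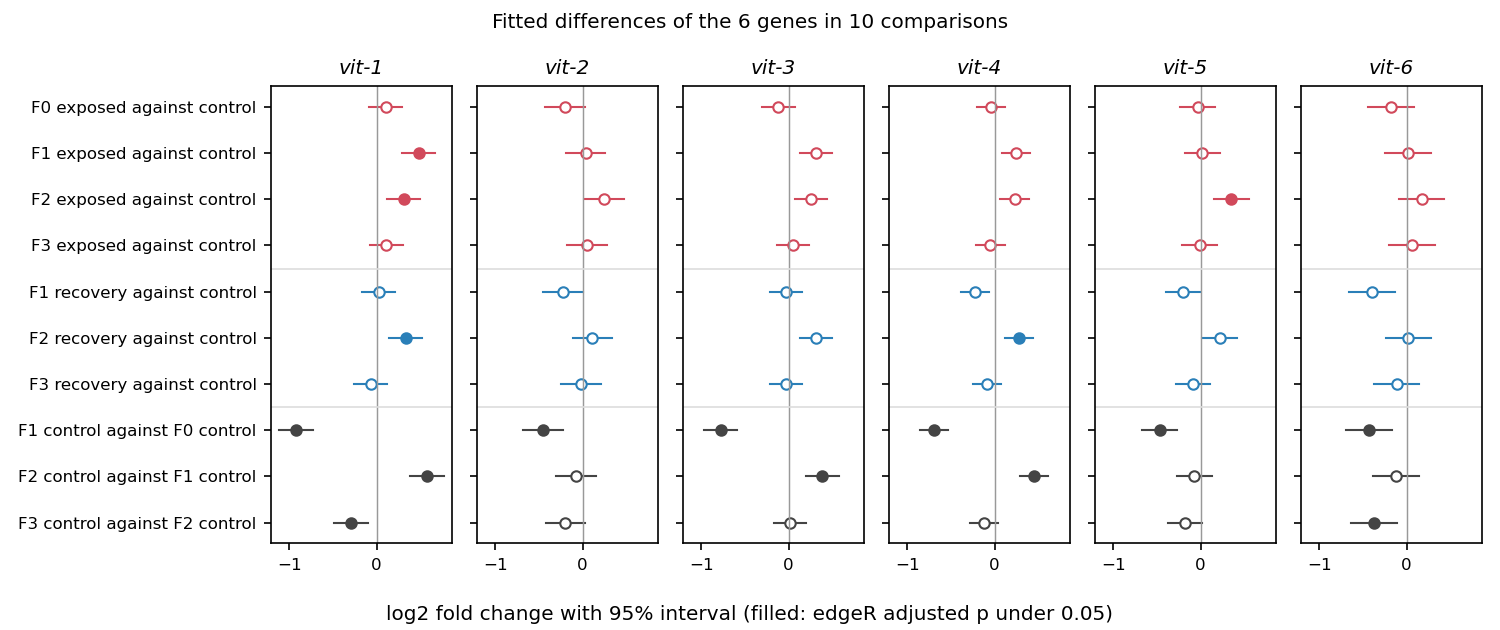
Log2 fold change of each gene with its 95% interval in 10 comparisons, filled where edgeR's adjusted p is under 0.05. vit-1 is called in F1 and F2 exposed and in F2 recovery animals against control, and all 6 genes are called lower in F1 control against F0 control animals.

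The recovery line asks whether a difference remains after irradiation in F0 alone. Its comparisons share the control libraries of F1 to F3 with those of the exposed animals, so the values stand side by side and are not independent. In F1 vit-6, the most abundant member, was 5563.5, 6078 and 6242 CPM in recovery and 7022.5, 8238 and 8205 CPM in control libraries (log2 -0.39 ± 0.13; edgeR adjusted p = 0.104). vit-4 was 771, 739 and 804 CPM in recovery libraries, below the F1 control libraries given above (log2 -0.23 ± 0.08; edgeR adjusted p = 0.134).

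vit-2 and vit-5 were likewise lower in each F1 recovery library than in each control library, with log2 differences of -0.22 ± 0.11 and -0.20 ± 0.10, and vit-1 and vit-3 overlapped, at 0.03 and -0.03. The 4 genes without overlap compare with 12.2% of all genes in that direction. edgeR called 0 of the 6, beside 2.81% of all genes. An unadjusted p under 0.05 was found for 3 of the 6, beside 2521 of all 17627 genes. DESeq2 called 1 (vit-6), and its share of all genes is not given here.

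In F2 the direction was the other one. vit-1 was 1807, 1730 and 1698 CPM in recovery libraries, above all 3 F2 control libraries, a 1.26-fold rise (log2 0.33 ± 0.09; edgeR adjusted p = 0.0455). vit-4 was 1547, 1512 and 1433 CPM in recovery and 1322, 1269 and 1112.5 CPM in control libraries, a 1.21-fold rise (log2 0.28 ± 0.08; edgeR adjusted p = 0.0485). vit-3 (log2 0.31 ± 0.09; adjusted p = 0.0523) and vit-5 (0.22 ± 0.10; adjusted p = 0.202) did not overlap the control libraries either, so that 4 of the 6 genes lay above, beside 10.9% of all genes.

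Of all genes 3.05% were called in F2 recovery against control and 0.238% were called higher. Both vitellogenin calls lay close to the threshold: neither was kept when any 1 of the 6 libraries compared was left out, with log2 values from 0.26 to 0.43 for vit-1 and from 0.23 to 0.33 for vit-4, nor in a fit of the F2 libraries alone (edgeR adjusted p = 0.11 and 0.0936). Calls over all genes fell too, to 0.0727% to 0.789% when 1 library was left out, except without F2 control replicate 3, with 7.98%. The change of the recovery against control difference from F1 to F2 was tested directly, a test added after the data were seen. vit-4 was called (log2 0.51 ± 0.11; edgeR adjusted p = 0.013), beside 3.76% of all genes, 0.987% of them in the direction of higher, and the other 5 were not. In F3 edgeR called 0 of the 6 in recovery against control, 0 had an unadjusted p under 0.05, DESeq2 called 0, and 1.58% of all genes were called. The log2 differences of F3 ran from -0.11 for vit-6 to -0.02 for vit-2. Averaged over F1 to F3 edgeR called 0 of the 6 (2.89% of all genes) and DESeq2 called 0, with log2 means from -0.16 for vit-6 to 0.10 for vit-1. In this mean 1 of the 6 had an unadjusted p under 0.05, beside 3754 of all 17627 genes.

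Exposed and recovery animals were also compared with each other. In F1 all 6 genes were higher in each exposed library than in each recovery library, as were 14.9% of all genes. vit-4 was 1.39-fold higher (log2 0.47 ± 0.08; edgeR adjusted p = 0.00265) and vit-1, at 1036, 919 and 882 CPM in recovery libraries, was 1.37-fold higher in exposed animals (log2 0.45 ± 0.09; adjusted p = 0.0103). These 2 were called beside 1.45% of all genes, 0.919% of them higher. The others had log2 differences of 0.40 ± 0.13 (vit-6), 0.34 ± 0.09 (vit-3), 0.25 ± 0.11 (vit-2) and 0.22 ± 0.10 (vit-5) and did not pass the test.

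The vit-1 call was lost without F1 exposed replicate 2 (log2 0.43), F1 recovery replicate 2 (0.44) or F1 recovery replicate 3 (0.41), where 0.146%, 0.235% and 0.409% of all genes were called. The vit-4 call was kept without each of the 6 libraries. In F2 and in F3 edgeR called 0 of the 6 between exposed and recovery animals, 0 had an unadjusted p under 0.05 and DESeq2 called 0. In F2 the log2 differences ran from -0.06 for vit-3 to 0.15 for vit-6. Of all genes 0.00567% were called in F2 and 1.68% in F3. vit-1 and vit-6 were higher in each exposed library of F3 than in each recovery library, as were 10.3% of all genes, with log2 differences of 0.18 ± 0.09 and 0.18 ± 0.13.

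The largest differences in the family were between generations of unirradiated controls. From F0 to F1 all 6 genes were lower, 1.89-fold for vit-1 (log2 -0.92 ± 0.09, SE), 1.71-fold for vit-3 (-0.78 ± 0.09), 1.61-fold for vit-4 (-0.69 ± 0.08), 1.38-fold for vit-5 (-0.47 ± 0.10), 1.37-fold for vit-2 (-0.45 ± 0.11) and 1.35-fold for vit-6 (-0.43 ± 0.13). edgeR's adjusted p ran from 1.02e-07 for vit-1 to 0.0177 for vit-6. vit-1 was 1742, 1787 and 1742 CPM in F0 controls, far above the F1 control libraries. None of the 6 genes overlapped, as was the case, in the direction of lower, for 23.3% of all genes.

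In this step 19.8% of all genes were called and 9.21% were called lower. Without F0 control replicate 1, which had the highest vit-2 and vit-6 levels of all libraries, vit-2 (log2 -0.33) and vit-6 (-0.31) were not called, and without F1 control replicate 1 vit-6 (-0.36) was not.

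From F1 to F2 the controls split the family. vit-1 rose 1.49-fold (log2 0.58 ± 0.09; edgeR adjusted p = 3.3e-05), vit-4 1.37-fold (0.45 ± 0.08; 9.07e-05) and vit-3 1.31-fold (0.39 ± 0.09; 0.00208), each without overlap (as were 20.7% of all genes in the direction of higher) and each kept without any 1 of the 6 libraries. vit-2, vit-5 and vit-6 had log2 differences of -0.08 ± 0.11, -0.07 ± 0.10 and -0.12 ± 0.13, with 95% intervals from -0.30 to 0.15, -0.27 to 0.13 and -0.38 to 0.14. Of all genes 23.5% were called and 12.8% were called higher.

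From F2 to F3 vit-1 fell 1.23-fold (log2 -0.29 ± 0.09; edgeR adjusted p = 0.0182) and vit-6 fell 1.30-fold (-0.38 ± 0.13; 0.0273), where 29.2% of all genes were called and 16.3% were called lower. Neither gene, nor vit-5 (-0.18 ± 0.10), overlapped, as was the case, in the direction of lower, for 19.1% of all genes. The vit-6 call was lost without F2 control replicate 1 (log2 -0.36), F2 control replicate 2 (-0.32), F3 control replicate 2 (-0.30) or F3 control replicate 3 (-0.38), and the vit-1 call without F2 control replicate 2 (-0.21). Without the 2 libraries with fewest genes detected, vit-1 remained called (log2 -0.27; adjusted p = 0.0491) and vit-6 did not (-0.38; 0.0525). The generations were separate harvests, so that generation and harvest cannot be told apart.

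Harvest stage was read from 3 lists of genes expressed at known times. Many cuticle collagen and moulting genes peak with larval moults, but the list used here also holds genes of the adult cuticle. Its score is therefore no plain measure of an earlier stage. Sperm genes are transcribed in the L4 larva when the hermaphrodite makes its sperm, and oocyte and eggshell genes follow in the adult. Each library was given 3 scores, the mean log2 CPM of 168, 72 and 19 listed genes that passed the filter. The scores come from the same libraries and are no independent record of the stage, and the oocyte list holds the yolk receptor gene rme-2.

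The stage lists also differed between generations of controls. Whether they moved with the vitellogenins was not tested over these 3 steps. From F0 to F1, where all 6 vitellogenins were lower, 101 of the 168 cuticle and moulting genes were called higher and 12 lower (median log2 1.81), and 9 of the 19 oocyte and eggshell genes were called lower with 0 higher (median -0.29), beside a median of -0.02 over all genes, and 8 of the 72 sperm genes were called higher and 1 lower (median 0.20), where 19.8% of all genes were called. The cuticle score was 2.51 ± 0.111 in F0 and 3.89 ± 0.0822 in F1 controls (SD, n = 3), and the oocyte score was 9.01 ± 0.0795 and 8.66 ± 0.0721. From F1 to F2, where vit-1, vit-3 and vit-4 rose, 7 of the 19 oocyte genes were called higher and 0 lower (median 0.22) and 16 cuticle genes higher and 1 lower (median 0.28), beside 23.5% of all genes. Of the sperm genes edgeR called 0 in this step, with an unadjusted p under 0.05 for 3, beside 6060 of all 17627 genes. From F2 to F3, where vit-1 and vit-6 fell, 122 cuticle genes (median -1.14) and 45 sperm genes (median -0.44) were called lower and 0 higher, and 2 oocyte genes were called higher and 0 lower (median 0.12), beside 29.2% of all genes. The 3 adult cuticle genes col-19, bli-1 and bli-2 are part of the cuticle list. Of these 3, 2 were called higher and 0 lower from F0 to F1 (median 2.85). From F1 to F2 edgeR called 0 (median 0.31), and from F2 to F3 all 3 were called lower (median -2.55).

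**Figure D4:**
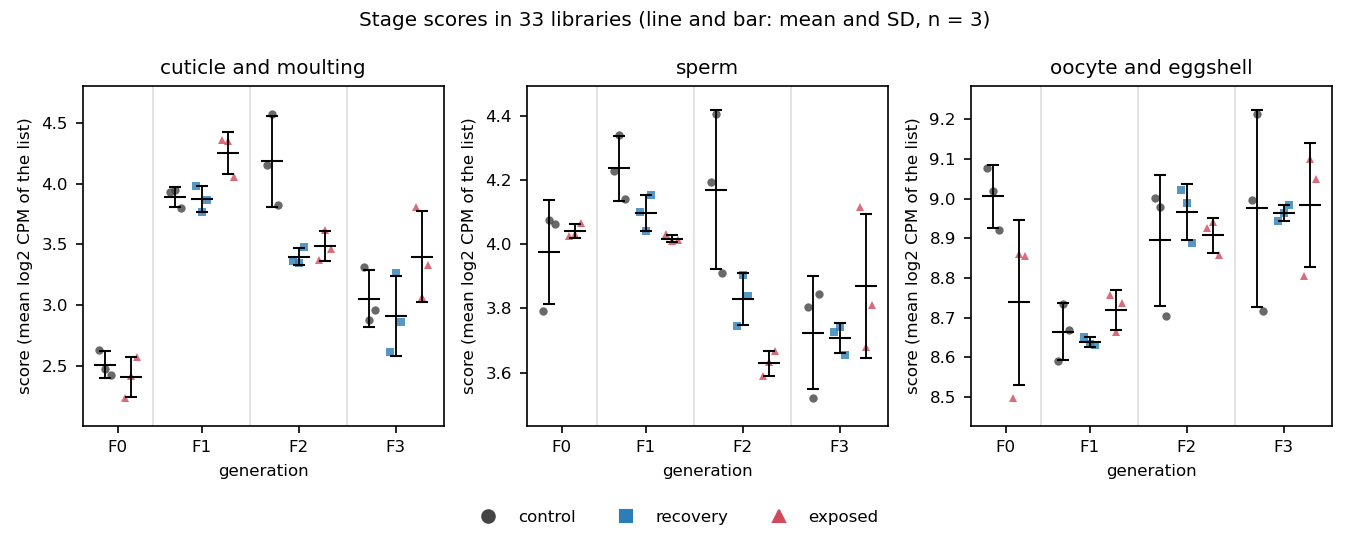
Stage scores (mean log2 CPM of the listed genes, axis not from 0) by generation and treatment, 1 point per library with mean and SD (n = 3). The F0 libraries have the lowest cuticle and moulting scores by group, at 2.24 to 2.63, and the oocyte and eggshell score is lower in F1, at 8.59 to 8.76, than in most libraries of F2 and F3.

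Stage lists also differed between treatments in F2, the generation with the most vitellogenin calls against control. In exposed against control animals of F2, 48 cuticle and moulting genes and 44 of 72 sperm genes were called lower and 0 higher, with list medians of -0.71 and -0.58 on the log2 scale. Of all 17627 genes 1092 were called lower in this comparison. In recovery against control animals of F2, 54 cuticle and moulting genes and 1 sperm gene were called lower and 0 higher. The list medians were -0.88 and -0.37, and 47 of the 72 sperm genes had an unadjusted p under 0.05. Of all 17627 genes 496 were called lower in this comparison, and 3556 had an unadjusted p under 0.05. The cuticle score of the F2 control libraries ran from 3.83 to 4.57, above the 6 exposed and recovery libraries of F2, at 3.35 to 3.62. With the cuticle score as a covariate edgeR called 0 of the 6 vitellogenins in either F2 comparison. The share of all genes called in these fits is not given here, so nothing particular to the vitellogenins is read from that count. The log2 values were no smaller, at 0.41 for vit-1 (edgeR adjusted p = 0.138) and 0.47 for vit-5 (0.0902) in exposed animals. In recovery animals they were 0.44 for vit-1 (0.491) and 0.34 for vit-4 (0.543).

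Few stage genes were called between treatments in F1. In exposed against control animals of F1, 1 cuticle and moulting gene was called higher, where 0.942% of all genes were called higher. In that comparison edgeR called 0 of 72 sperm genes and 0 of 19 oocyte genes, with an unadjusted p under 0.05 for 22 and 0. Of all 17627 genes 2170 had an unadjusted p under 0.05 there. The vit-1 difference of F1 was kept with the cuticle score as a covariate (log2 0.43; edgeR adjusted p = 0.0213) and with the oocyte score (0.46; adjusted p = 0.00178). With the oocyte score as a covariate vit-3 (0.27; adjusted p = 0.0134) and vit-4 (0.21; adjusted p = 0.0335) were called in F1 as well.

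The link to stage was then tested within groups, as the slope of each vitellogenin on each score in a fit with 1 coefficient per group. On the oocyte and eggshell score all 6 slopes were positive and 4 were called. These were vit-2 (0.79 ± 0.17 log2 CPM per unit of the score, SE; edgeR adjusted p = 0.000853), vit-6 (0.71 ± 0.23; 0.021), vit-3 (0.69 ± 0.13; 0.000196) and vit-4 (0.59 ± 0.11; 0.000261). vit-1 (0.41 ± 0.17; adjusted p = 0.086) and vit-5 (0.13 ± 0.19; 0.698) did not pass the test. Of all genes 22.9% had a called slope and 12.6% a positive one, and the median slope over all genes was -0.08.

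The within-group SD of the oocyte score was 0.128, so these slopes describe small shifts between replicates. The libraries that stretched the relation were F0 exposed replicate 1, with the lowest oocyte score of all, at 8.50, and vit-2 and vit-6 levels of 6539 and 7077 CPM, below the other F0 exposed libraries, at 8807 to 9119.8 and 10270 to 10666 CPM. Without it the vit-6 slope was 0.43 and was not called (edgeR adjusted p = 0.219), and without F2 control replicate 3 it was 0.66 (0.0576). The slopes of vit-2, vit-3 and vit-4 were called without each of the 33 libraries in turn, with values from 0.63 to 0.98, 0.63 to 0.76 and 0.54 to 0.63.

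On the cuticle and moulting score and on the sperm score edgeR called 0 of the 6 slopes, and 0 had an unadjusted p under 0.05. Of all genes 12.5% had a called slope on the cuticle score and 8.17% on the sperm score. The 6 slopes ran from 0.02 for vit-3 to 0.25 for vit-6 on the cuticle score, and from -0.12 for vit-3 to 0.19 for vit-5 on the sperm score.

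**Figure D5:**
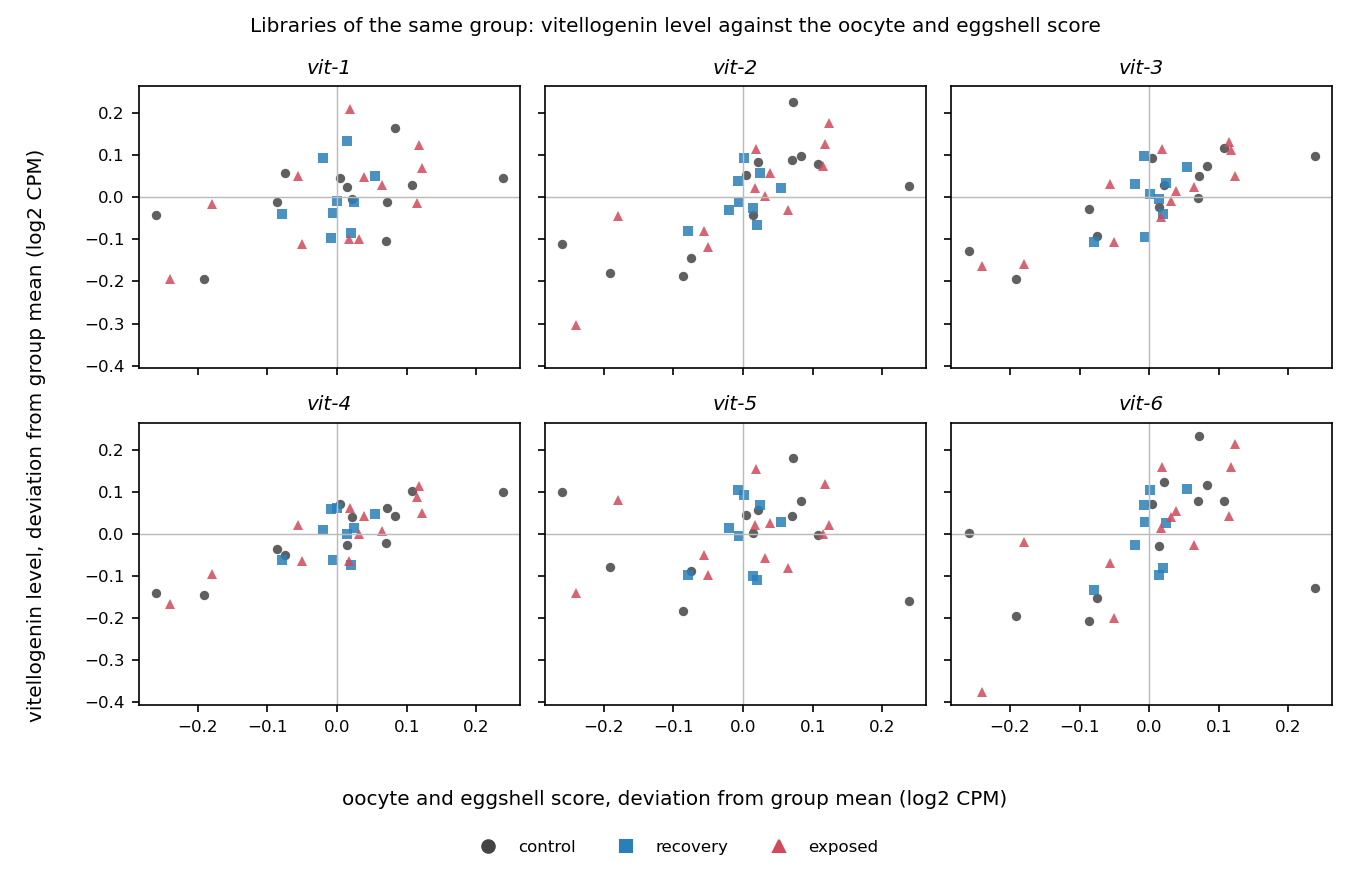
Deviation of each library from its group mean, for the oocyte and eggshell score (horizontal, log2 CPM) and for each vitellogenin (vertical, log2 CPM), 33 libraries per panel coloured by treatment. vit-2, vit-3, vit-4 and vit-6 climb from left to right, with slopes of 0.59 to 0.79, and vit-5 shows no called slope (0.13).

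The 6 genes did not move as a block. Over the 33 libraries, which share groups, scaling and harvest, the Pearson correlation of log2 CPM was 0.966 between vit-2 and vit-6, 0.931 between vit-5 and vit-6, 0.929 between vit-2 and vit-5, 0.96 between the neighbours vit-3 and vit-4, and 0.923 between vit-1 and vit-4. It was lowest between vit-3 and vit-6, at 0.494, and between vit-4 and vit-6, at 0.546. After subtracting group means it was 0.951 for vit-3 with vit-4, 0.935 for vit-2 with vit-6 and 0.31 for vit-1 with vit-5. Members that share reads would correlate through these reads, which was not tested.

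The genes whose levels followed the family most closely were mainly collagens. Among 8232 genes with a symbol and a mean of at least 10 CPM, the 10 with the highest Pearson correlation to the mean log2 CPM of the family over 33 libraries had r from 0.803 to 0.909. They were the cuticle collagens col-101, col-143, col-178, col-140, col-179, col-95 and col-160, the nucleolar protein gene dao-5, the gene of the endoplasmic reticulum translocon subunit sec-61.A, and the cathepsin-like protease gene cpr-9. col-101, the closest, had r of 0.909 over libraries, 0.95 over the 11 group means and 0.636 within groups. These collagens belong to the cuticle and moulting list, which did not follow the family as a whole. From F0 to F1 controls, where all 6 vitellogenins were lower, 101 of 168 genes of that list were called higher and 12 lower.

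Within groups the closest genes were others. They were sca-1, which encodes the calcium pump of the endoplasmic reticulum (r = 0.845), F22G12.5, F10D7.5, the translation initiation factor gene eif-2A, lpd-6, the carnitine palmitoyltransferase gene cpt-1, Y73B6BL.23, the calmodulin gene cmd-1, seu-1 and the acyl-CoA dehydrogenase gene acdh-7, with r down to 0.81. These correlations are descriptions over libraries that share depth and harvest, and carry no test.

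The other genes of the yolk pathway were read from a list of 20: receptor and endocytosis genes, the lipoprotein assembly gene dsc-4, transcription factors, and insulin and TORC2 signalling genes, all of which passed the filter. Averaged over the 4 generations 2 of the 20 were called higher in exposed animals and 0 lower, beside 8.29% of all genes called and 5.53% called higher, so that the list's share was near that of all genes. The list median was 0.01 on the log2 scale and that of all genes -0.01. elt-2, the main GATA factor of the intestine and an activator of vitellogenin genes, was 1.28-fold higher at 8.64 against 6.79 CPM (log2 0.35 ± 0.08; edgeR adjusted p = 0.00425), and kept this call without each of the 24 libraries. mab-3, the repressor of vitellogenins in males, was 1.36-fold higher at 1.21 against 0.897 CPM (log2 0.44 ± 0.13; edgeR adjusted p = 0.035), a call lost without any 1 of 13 of the 24 libraries.

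By generation the exposed against control calls in this list were both in F3, where no vitellogenin was called and 5.24% of all genes were. elt-2 was 8.81 against 5.58 CPM (log2 0.66 ± 0.16; edgeR adjusted p = 0.0156; not called without F3 exposed replicate 1 or F3 control replicate 2, highest adjusted p 0.0733). mab-3 was 1.72 against 0.787 CPM (log2 1.11 ± 0.27; edgeR adjusted p = 0.0126; not called without F3 exposed replicate 3, adjusted p 0.0933). In F0, F1 and F2 edgeR called 0 of the 20, with an unadjusted p under 0.05 for 7, 4 and 4. Of all 17627 genes 2859, 2170 and 4302 had an unadjusted p under 0.05 in these generations. The yolk receptor gene rme-2, the microsomal triglyceride transfer protein gene dsc-4, and unc-62 and ceh-60, whose homeodomain products act together on vitellogenin genes, had mean exposed against control log2 differences of -0.05 ± 0.04, -0.0041 ± 0.044, -0.04 ± 0.07 and 0.18 ± 0.06, none called (edgeR adjusted p = 0.55, 0.972, 0.798 and 0.052).

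In recovery against control animals averaged over F1 to F3 edgeR called 0 of the 20 pathway genes, beside 2.89% of all genes called. An unadjusted p under 0.05 was found for 4 of the 20, beside 3754 of all 17627 genes. By generation 1 of the 20 was called in F1, beside 2.81% of all genes, the insulin receptor gene daf-2, which is named after its values were seen (1.50-fold higher; log2 0.59 ± 0.14; edgeR adjusted p = 0.0207), a call lost without any 1 of 3 of the 6 libraries. ceh-60 was the 1 called in F3 recovery animals, beside 1.58% of all genes (1.37-fold higher; log2 0.45 ± 0.12; edgeR adjusted p = 0.0436), a call lost without any 1 of 4 of the 6 libraries. In F1 exposed against recovery animals, where vit-1 and vit-4 were higher, 3 pathway genes were called higher and 0 lower, beside 1.45% of all genes called and 0.919% called higher. dsc-4, needed to load lipid onto yolk, was among them at 50.9 against 40.2 CPM (1.27-fold; log2 0.34 ± 0.09; edgeR adjusted p = 0.0422), and the others were rme-1 and skn-1, named after their values were seen. All 3 calls were lost whichever 1 of the 6 libraries was left out.

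Between generations of controls many genes of all kinds were called, and nothing particular to the pathway list is read from its counts. From F0 to F1, 5 of the 20 were called lower and 1 higher, beside 19.8% of all genes called and 9.21% called lower, and rme-2 fell (log2 -0.29 ± 0.09; edgeR adjusted p = 0.0215; lost without any 1 of 4 of the 6 libraries). From F1 to F2, 7 were called higher and 1 lower, beside 23.5% of all genes called and 12.8% called higher. dsc-4 rose 1.61-fold (log2 0.68 ± 0.09; adjusted p = 1.52e-06), kept without each of the 6 libraries, unc-62 1.36-fold (0.44 ± 0.14; 0.0197; lost without any 1 of 4 libraries) and rme-2 1.24-fold (0.31 ± 0.09; 0.011; lost without F2 control replicate 1 or 2). From F2 to F3, 4 were called lower and 0 higher, beside 29.2% of all genes called and 16.3% called lower, among them dsc-4 (1.20-fold; log2 -0.26 ± 0.09; 0.0244; lost without any 1 of 3 libraries) and ceh-60 (1.37-fold; -0.45 ± 0.12; 0.00519; lost without F3 control replicate 2).

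Markers of the cells that make yolk were present throughout. All 10 intestinal markers had counts in every library, with a summed level of 1861 to 3265 CPM. That sum was 1989 ± 111 CPM in F1 recovery, 2339 ± 180.5 CPM in F1 control and 2615 ± 230 CPM in F1 exposed animals (SD, n = 3). In F2 it was 2759.7 ± 619 CPM in control, 2622 ± 26.9 CPM in recovery and 2403 ± 146 CPM in exposed animals, so that exposed animals had the highest mean sum in F1 and the lowest in F2. The sum rests mainly on asp-1 and cpr-6, with at least 23216 and 17150 counts per library, against at most 15970 for any other marker. In F1 exposed against recovery 2 of the 10 were called higher and 0 lower, in F1 exposed against control 1 higher and 0 lower, and in F1 recovery against control 0 higher and 1 lower. Of all 17627 genes 162 and 166 were called higher in the first 2 comparisons, and 133 were called lower in the last. The part of intestinal RNA in the vitellogenin differences was not tested.

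Male and embryonic RNA was scarce. Of 11 male markers 7 passed the filter, with a summed level of all 11 of 2.24 to 9.59 CPM. The marker cwp-3 was at 0 in 20 libraries, dmd-3 in 6, lov-1 in 5, mab-23 in 3, and cwp-1, cwp-2 and cwp-5 in 1 each. The male sum was higher in exposed than in control animals without overlap in F0 (8.12 to 9.59 against 5.07 to 6.95 CPM), F1 (7.30 to 7.86 against 2.81 to 5.17 CPM) and F3 (3.90 to 6.21 against 2.48 to 2.90 CPM), and overlapped in F2 by range (3.50 to 4.29 against 3.36 to 4.16 CPM). asic-2 reached 337 counts in a library, against at most 67 for any other male marker, so the sum can rest largely on 1 gene. The mean log2 CPM of the 7 tested markers overlapped between exposed and control libraries in F0 (-1.02 to -0.95 against -1.13 to -0.97), F1 (-1.04 to -0.81 against -1.61 to -0.97) and F2. In F3 this mean did not overlap (-1.105 to -0.388 against -1.958 to -1.366). Averaged over generations 2 of the 7 tested were called higher in exposed animals, beside 5.53% of all genes, mab-3, which is on both lists, being 1 of them. The 8 markers of young embryos summed to 4.70 to 13.1 CPM. In F1 the sum was 8.07 to 9.51 CPM in recovery libraries, above control libraries, at 5.01 to 7.16 CPM, and exposed libraries, at 4.70 to 6.96 CPM. Of the 8, 1 was called higher and 0 lower in F1 recovery against control animals (median log2 0.40), beside 2.81% of all genes called. The part of these markers in the vitellogenin differences was not tested.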

How the data were processed

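Total RNA of whole N2 animals was sequenced as strand-specific paired-end libraries with reads of 150 bases from fragments of 350 bp, per the labels' protocols. The authors deposited 1 file of raw read counts per gene for each of 33 libraries, and the submitters' processing notes name STAR, with no version, and DESeq2 1.22.2. Their annotation, and how reads matching several genes were treated, is not given in the sources used here. No copy of a library was found: the lowest chi-square per degree of freedom between replicates was 8.53 over 33 pairs.

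From these counts, edgeR 4.0.16 in R 4.3.3 (with limma 3.58.1) fitted 1 coefficient per group to 17627 genes kept by filterByExpr, with TMM scaling, robust quasi-likelihood dispersions and 22 residual degrees of freedom. The common biological coefficient of variation was 0.119. P-values were two-sided and adjusted by Benjamini-Hochberg over all genes tested, within each of 16 comparisons, with a threshold of 0.05. Log2 CPM used a prior count of 2. Stage scores are means of log2 CPM, and slopes on them were tested in the same fit with the score added. The code was tested on simulated counts.

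Symbols came from a name table (43818 of 46778 identifiers) and positions and exon lengths from the WBcel235 annotation (46603 identifiers). The members, gene lists and tests were chosen with earlier results of these data known. The rule for named genes took the 6 vitellogenins, the yolk pathway genes called in the mean comparisons and rme-2, dsc-4, unc-62, ceh-60, elt-2 and mab-3 whether called or not (elt-2 and mab-3 were the called ones), and the 10 genes most like the family. Alternatives were DESeq2 1.42.0, its size factors, no filter on low counts, stage and ribosomal RNA covariates, the libraries of 1 generation alone, a replicate block, leaving out the 2 libraries with the fewest genes detected, and leaving out each library in turn, which was added for the yolk pathway genes after seeing the data. Total counts of 27698760 to 60808541 per library make counting error small for these genes.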

Additional observations from a re-analysis of the deposited data

Results flagged for a closer look

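The difference between recovery and control animals went opposite ways in F1 and F2 for vit-4 and vit-5. For both genes each recovery library lay below each control library in F1 and above each control library in F2. A test of the difference between the F2 and F1 differences, added after seeing the data, gave a log2 value of 0.51 ± 0.11 (SE; edgeR adjusted p = 0.013) for vit-4 and 0.42 ± 0.14 (adjusted p = 0.0798) for vit-5. Of all genes 3.76% were called in that test and 0.987% in the direction of higher. vit-4 was called without each of the 12 libraries in turn, with log2 values from 0.45 to 0.55, and vit-5 was called with DESeq2 (adjusted p = 0.016) and with no filter on low counts (0.0303).

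vit-3 (0.34 ± 0.13), vit-1 (0.31 ± 0.13), vit-2 (0.33 ± 0.16) and vit-6 (0.41 ± 0.18) did not pass the test, with edgeR adjusted p-values from 0.128 to 0.229. Beside these values, the cuticle and moulting score was 3.87 in recovery and 3.89 in control animals of F1, and 3.40 and 4.18 in those of F2. The summed level of intestinal markers was 1989 and 2339 CPM in F1, and 2622 and 2759.7 CPM in F2. With the cuticle score as a covariate the vit-4 value was 0.57 (edgeR adjusted p = 0.0269).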

How the results depend on the processing

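Counts of called vitellogenins in F1 exposed against control, which were 1, became 2 with no filter on low counts, in libraries of the generation alone and with DESeq2, and 3 with the oocyte score as a covariate. In F2 exposed against control, with 2, they became 4 with DESeq2 size factors, no filter, the oocyte covariate or DESeq2, 3 without the 2 libraries with the fewest genes detected, 1 with the ribosomal RNA covariate and 0 with the cuticle covariate or in the generation alone. For the mean over generations, with 1, they became 2 with no filter or DESeq2 and 3 with the oocyte covariate, and for the difference between generations, with 0, they became 1 with no filter and 3 with DESeq2. In F2 recovery against control, with 2, they became 3 with DESeq2 size factors, no filter, the oocyte covariate, DESeq2 or without the 2 libraries with the fewest genes detected, and 0 with the cuticle or ribosomal RNA covariate or in the generation alone. In F1 recovery against control, with 0, they became 2 with the oocyte covariate and 1 in the generation alone or with DESeq2, and in F1 exposed against recovery, with 2, they became 4 in both of these and 3 with no filter, the oocyte covariate or without those 2 libraries. In F3 against F2 controls, with 2, they became 1 with no filter or without the 2 libraries with the fewest genes detected, 0 with the cuticle covariate and 4 with the oocyte covariate. With 1 coefficient per generation 1 slope on the sperm score was called, where 0 had been. vit-2 in F3 against F2 controls was -0.20 and turned to 0.022 with the cuticle covariate, and the vit-3 slope on the sperm score, -0.12, turned to 0.042 without F3 exposed replicate 1 and ran from -0.42 to 0.042 over the libraries left out. The causes were not tested. Shares of all genes called under these alternatives are not given here, so nothing particular to the vitellogenins is read from the changes in count. Leaving out 1 library at a time gave counts of 0 to 1 in F1 exposed against control, 0 to 2 in F2 exposed against control, 1 to 2 for the mean over generations, 1 to 2 in F1 exposed against recovery, 0 to 0 in F2 recovery against control and 0 to 2 in F3 against F2 controls. Same-numbered replicates correlated above 0.1 in 3 of 30 pairs, and in 9 the best match was the own number, so the numbers were not taken as pairs. With a replicate block the F2 recovery against control count became 1 (vit-1). Of 73 pairs of gene and comparison never called, 35 changed sign under some alternative, from log2 values of at most 0.19 in size. How many reads near-identical members share was not measured.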

Other observations

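The make-up of the family shifted with generation. vit-1, vit-3 and vit-4 together made 12.5% to 14.3% of the family's counts in F1 control libraries, 14.6% to 16.3% in F1 recovery and 15.4% to 17.2% in F1 exposed libraries. In F2 they made 18.4% to 18.8% in control, 18.4% to 19.3% in exposed and 20.4% to 21.2% in recovery libraries. In F3 they made 19.0% to 21.9% in control libraries, while F0 control libraries, with the highest levels of vit-2 and vit-6, held 14.8% to 18.2%. The ratio of vit-1 to vit-2 counts ran from 0.118 to 0.156 in F1 control libraries and from 0.236 to 0.255 in F2 recovery libraries. The ratio of vit-6 to vit-2 counts ran from 1.13 to 1.15 in F1 control and from 0.902 to 0.918 in F3 recovery libraries. These shares were not tested.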
